A study of Homo sapiens with 31 samples.

Results

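The comparison is between NALM-6 cells with strong and with moderate XIAP KD, late after transduction. It uses 11 of the 31 samples of the series: 6 with SFFV/sh-XIAP (strong KD, 3 at day 10 and 3 at day 13) and 5 with EF1a/sh-XIAP (moderate KD, 2 at day 10 and 3 at day 13), chosen by construct and day only. NALM-6 is an established human B-cell precursor ALL line. All 11 samples were transduced with a lentivirus that carries the same hairpin against XIAP, sh-XIAP.1, in a miR30 cassette behind the fluorochrome dsRED, and differ in the Pol II promoter that drives both. The hairpin level, the dsRED level and the promoter therefore changed together, and within these 11 samples they cannot be told apart. The 10 control samples of the same days carry a control hairpin under the same promoters (4 SFFV/sh-CTRL, 6 EF1a/sh-CTRL) and measure the difference between the vectors without XIAP KD. A further 10 samples date from day 4, 2 with each sh-XIAP construct. The sample labels place the cells in vitro, whereas the design text of the series places them in mouse bone marrow. Neither says whether replicates were separate cultures, so that p-values measure the spread between these samples, which may be technical. The study's methods state that 5 samples were left out as outliers by principal component analysis. The paper does not say whether these are among the 31. If they are not, the spread seen here was narrowed beforehand.

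XIAP is the member of the inhibitor of apoptosis (IAP) family that binds caspases directly and blocks them, whereas BIRC2 and BIRC3 (cIAP-1 and cIAP-2) are ubiquitin ligases of TNF receptor and NF-kB signalling. Molecular chaperones fold new and damaged proteins. HSP70 and HSP90 proteins do so in the cytosol, HSPE1 and HSPD1 in the mitochondrion, and calreticulin and GRP94 in the endoplasmic reticulum (ER). The genes of the first group are known targets of heat shock factor through heat shock elements, those of the ER through ER stress elements.

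Expression was measured by prime-seq, which reads the 3′ end of transcripts and counts unique molecular identifiers (UMIs). Total UMIs ranged from 312852 to 1148669 with strong KD (median 708866) and from 315055 to 1048088 with moderate KD (median 482464), a difference that an exact permutation test within days did not separate (two-sided p = 0.265). The same exact permutation test gave p = 0.43 for the share of UMIs on pseudogenes, p = 0.365 for ribosomal protein genes and p = 0.065 for mitochondrial transcripts. The day 10 replicate 2 libraries of both constructs were the shallowest. All 12 markers of the NALM-6 identity list, among them PAX5, VPREB1, IGLL1 and DNTT, had UMIs in 11 of 11 libraries, and 0 of the 12 passed the threshold between the groups (median log2 fold change -0.07). Markers of T, myeloid, erythroid and stromal cells together held 75, 56, 11 and 31 UMIs over the 11 libraries, and CD4, S100A9 and FCN1 held 0. The summed level of each of these 4 marker lists overlapped between the groups. Levels are given in CPM, UMI counts scaled to a common library total after TMM normalization. Fold changes are strong minus moderate KD on the log2 scale.

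XIAP itself was covered by few UMIs, between 2 and 9 per library. Its level was 6.22 CPM in the lowest, 8.09 in the median and 14.3 in the highest library with strong KD. With moderate KD the libraries had 11.6 and 9.32 CPM at day 10 and 10.5, 9.06 and 7.63 CPM at day 13. The groups overlapped over almost their whole range. The means were 8.82 ± 2.97 CPM (SD, n = 6) and 9.62 ± 1.49 CPM (SD, n = 5), a log2 fold change of -0.14 (standard error 0.382, limma adjusted p = 0.992). An exact permutation test within days gave p = 0.475, where 0.005 is the smallest p it allows. Pooled over libraries, 39 UMIs against 26 gave a ratio of 0.940, and its 95% exact interval of 0.558 to 1.61 takes in counting error alone. The mRNA thus showed no difference in XIAP that was detectable at this depth. The controls had 10.3 ± 4.69 CPM (SD, n = 4) with SFFV/sh-CTRL and 10.7 ± 4.60 CPM (SD, n = 6) with EF1a/sh-CTRL. Neither strong KD nor moderate KD differed from its own control for XIAP past the threshold (limma adjusted p = 0.981 and 0.995). The names strong and moderate KD follow the paper's Western blots of XIAP protein in NALM-6 cells. The values here are of mRNA, an unlike measure, and do not show the KD.

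BIRC2 was at 31.9 ± 6.38 CPM (SD, n = 6) with strong KD and 36.1 ± 7.01 CPM (SD, n = 5) with moderate KD, a log2 fold change of -0.21 (standard error 0.210, limma adjusted p = 0.961). BIRC3 was too low to be tested, with 4 UMIs in strong and 0 in moderate KD libraries. Of the other apoptosis lists, none had a member past the threshold. This held for 11 tested IAP genes and antagonists, 15 caspase and apoptosome genes, 18 BCL2 family genes, 15 death receptor and RIPK1 complex genes, 19 NF-kB subunits and targets and 27 p53 targets. At an unadjusted p under 0.05 limma-voom gave at most 1 member per list, and edgeR called 0. Their median log2 fold changes lay between -0.07 and 0.02, beside -0.01 for all genes tested.

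Over the transcriptome, limma-voom called 82 of 17683 genes (0.464%) at an adjusted p of at most 0.25. Strong KD was higher in 54 of them (0.305%) and lower in 28 (0.158%). The split moved to 46 higher and 38 lower with DESeq2 size factors. The edgeR quasi-likelihood test called 88 genes (0.498%), 63 higher (0.356%) and 25 lower (0.141%), and shared 54 with limma-voom. At an unadjusted p under 0.05 limma-voom gave 1110 genes, of which fewer were higher (489) than lower (621), the reverse of the split at the adjusted p. The differences were small: the median size over the 82 genes was 0.43 on the log2 scale, 27 were under 0.25 and 18 were over 1. Of the 82 genes, 48 were protein coding and 29 were pseudogenes, most of them copies of abundant genes. In 33 of the 82 genes the groups did not overlap, against 141 of all 17683 genes (0.797%). The call used the same libraries, so that a larger share among called genes follows from it in part. Exact permutation p of called genes rest on the same libraries and are no independent test either. By direction, the called genes without overlap were 26 higher and 7 lower, against 83 (0.469%) and 58 (0.328%) of all genes. The number rested in part on single libraries, being 42 without SFFV/sh-XIAP day 10 replicate 3, 51 without EF1a/sh-XIAP day 13 replicate 2 and 106 at most. The 28 lower genes became 8 to 18 without any 1 of 8 libraries, that is all but EF1a/sh-XIAP day 13 replicate 3 and SFFV/sh-XIAP day 10 replicate 2 and day 13 replicate 3.

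**Figure D1:**
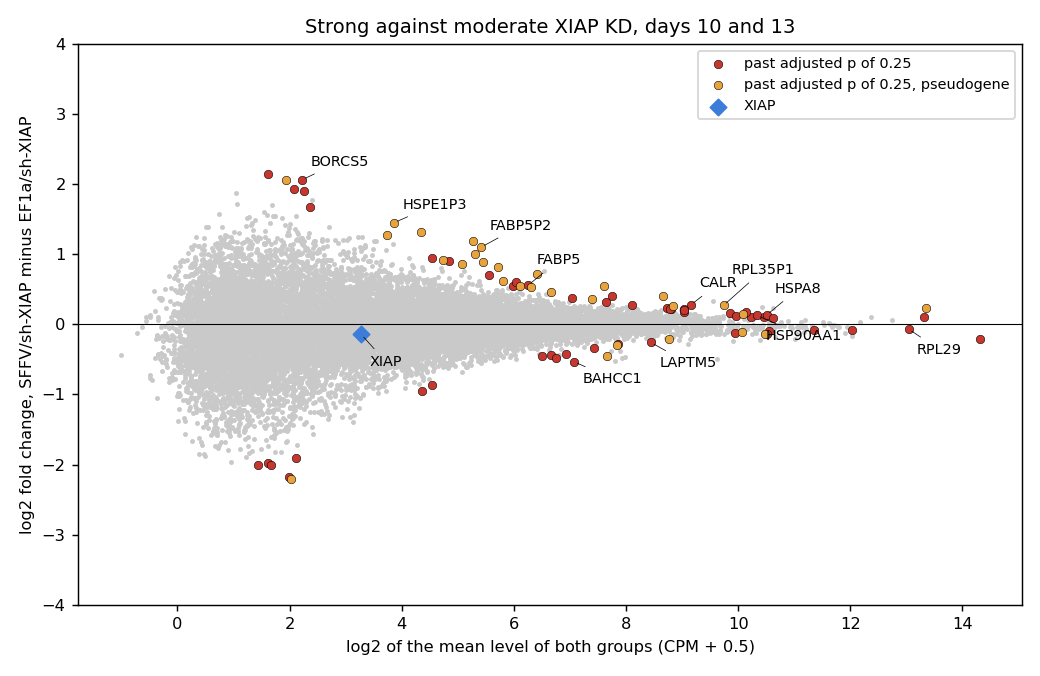
Each point is a gene, with the log2 mean level of both groups (CPM + 0.5) on the x axis and the log2 fold change of SFFV/sh-XIAP minus EF1a/sh-XIAP on the y axis. Genes past the adjusted p of 0.25 in limma-voom are red, or orange for pseudogenes, and XIAP is the blue diamond near 0. Abundant genes passed at small fold changes, whereas genes of low level passed only near a log2 fold change of 2 in size.

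Among protein-coding genes that were higher with strong KD, chaperone genes had the smallest p, CALR and HSPA8, after 3 pseudogenes of RPL35. Their fold changes were small. Of 34 tested cytosolic and mitochondrial chaperones 4 rose past the threshold and 0 fell. These were HSPA8, the constitutive HSP70, HSP90AA1 and HSP90AB1, the cytosolic HSP90 proteins, and HSPE1, the mitochondrial co-chaperonin. Of 25 ER chaperones and folding factors, 2 rose and 0 fell, namely CALR, which encodes calreticulin, and HSP90B1, which encodes GRP94. Both lists leaned to positive values beyond the called members. The first list had 25 positive and 9 negative members with a median of 0.09, and the second had 18 and 7 with a median of 0.11. Over all genes 8517 were positive and 9166 negative, with a median of -0.01, and 0.305% were called higher and 0.158% lower. Abundant genes passed at smaller fold changes. Whether any list exceeds this share at like abundance was not tested. Among members that did not pass, HSPA9 had a log2 fold change of 0.20 (limma adjusted p = 0.266), HSPD1 of 0.12 (0.396) and HSPA5 of 0.19 (0.486). These examples are all positive. The lowest log2 fold change was -0.80 in the first list and -0.60 in the second. The summed level of the first list was 8534 to 8998 CPM in strong and 7813 to 8148 CPM in moderate KD libraries, and that of the second 4838 to 5214 and 4562 to 4812 CPM. The called members enter these sums, which are thus no separate support. Such a separation was not particular to chaperones. The actin list (11106 to 11508 against 10582 to 11056 CPM) and the respiratory chain list (10451 to 10663 against 9624 to 10275 CPM) described below did not overlap either. The HLA list below separated in the opposite direction. The TRiC/CCT and prefoldin list, which folds actin and tubulin, had 0 of 14 members past the threshold (2 at an unadjusted p under 0.05, 0 in edgeR), 11 of them positive, with a median of 0.04.

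CALR (ENSG00000179218, chromosome 19 from 12938578 to 12944489 on the plus strand, GENCODE 29 on GRCh38) was at 588, 633 and 659 CPM in the lowest, median and highest strong KD library. The moderate KD libraries had 502 and 475 CPM at day 10 and 537, 513 and 545 CPM at day 13. Every strong KD library was above every moderate KD library, on both days. The means of 626 ± 28.0 CPM (SD, n = 6) and 515 ± 27.8 CPM (SD, n = 5) gave a log2 fold change of 0.28 (standard error 0.0513, limma adjusted p = 0.000827, edgeR adjusted p = 0.000873, exact permutation p = 0.005). The controls lay between them, with 578 ± 36.4 CPM (SD, n = 4) for SFFV/sh-CTRL and 538 ± 36.5 CPM (SD, n = 6) for EF1a/sh-CTRL. The log2 fold change between the controls was 0.12 (limma adjusted p = 0.916). HSP90B1 (chromosome 12 from 103930107 to 103953645, plus strand) behaved alike in rank, with 541 to 594 CPM (median 569) in strong KD. Its moderate KD libraries had 514 and 448 CPM at day 10 and 453, 511 and 496 CPM at day 13. The groups again did not overlap, and the log2 fold change was 0.22 (standard error 0.0547, limma adjusted p = 0.0617, edgeR adjusted p = 0.0541, exact permutation p = 0.005). Between the controls the log2 fold change of HSP90B1 was 0.04.

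HSPA8 (chromosome 11 from 123057489 to 123063230, minus strand) was at 1484, 1508 and 1557 CPM in the lowest, median and highest strong KD library. The moderate KD libraries had 1470 and 1321 CPM at day 10 and 1435, 1393 and 1365 CPM at day 13. Again no library of one group reached the other, although the gap was narrow. The log2 fold change was 0.13 (standard error 0.0250, limma adjusted p = 0.000897, exact permutation p = 0.005), but the edgeR adjusted p was 0.505. HSP90AA1 (1351 ± 65.6 against 1232 ± 39.1 CPM, SD, log2 fold change 0.13, limma adjusted p = 0.0184) and HSP90AB1 (968 ± 58.4 against 892 ± 47.3 CPM, SD, 0.17, 0.0280) overlapped between the groups. Their exact permutation p was 0.02 and 0.04, and edgeR called neither (adjusted p = 0.454 and 0.507). CALR kept its call in all 36 alternatives of the processing, HSPA8 in 30, HSP90AA1 in 31, HSP90AB1 and HSP90B1 in 29 each, and HSPE1 in 20.

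**Figure D2:**
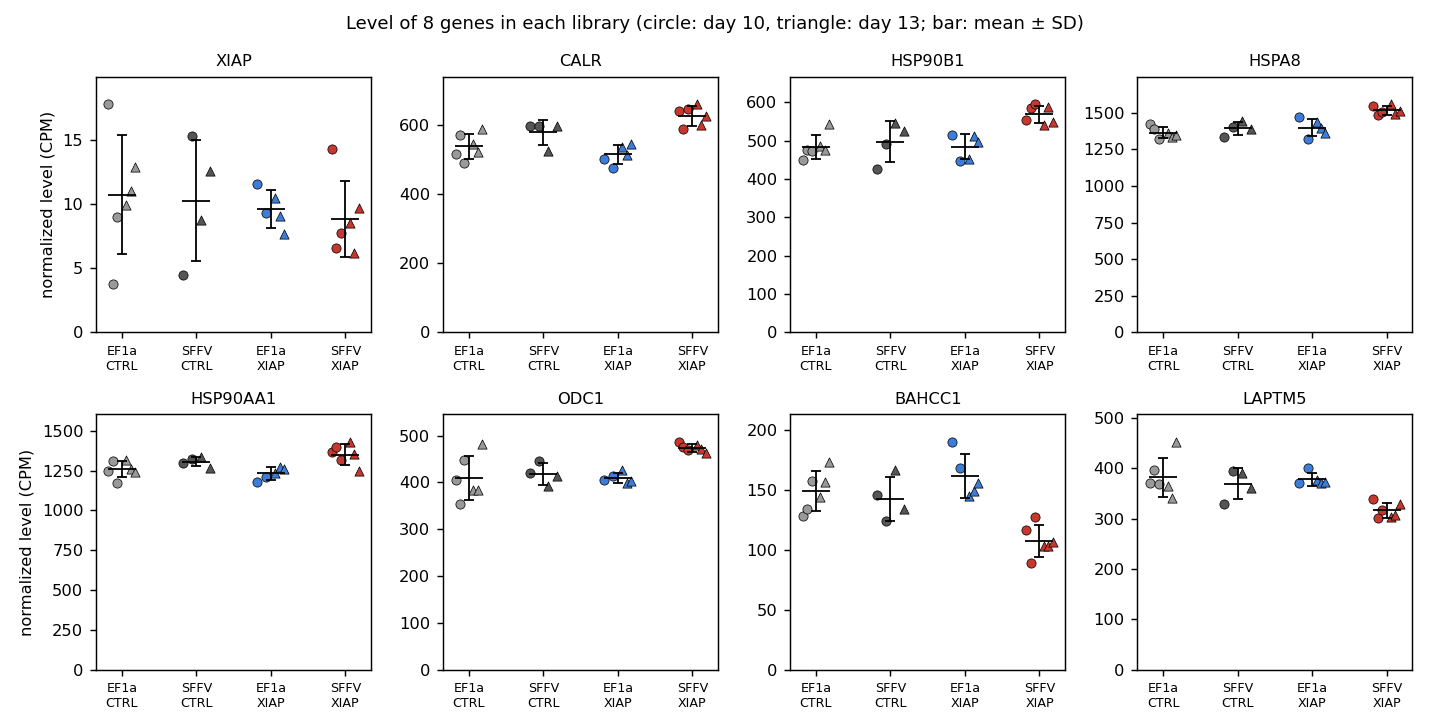
Level in CPM (y axis, from 0) of 8 genes in each library of days 10 (circles) and 13 (triangles), by construct (x axis), with mean ± SD. In CALR, HSP90B1, HSPA8 and ODC1 the SFFV/sh-XIAP libraries sit above all EF1a/sh-XIAP libraries, in BAHCC1 and LAPTM5 below them, in HSP90AA1 they overlap, and in XIAP they overlap widely.

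The promoters of these chaperone genes are shown because their known response elements could be read directly from RefSeq (GRCh38.p14, from 250 bases before to 50 after the start). Both strands were searched for the ER stress element, CCAAT and CCACG with 9 free bases between them, and for the heat shock element, GAA, TTC and GAA with 2 free bases between neighbours. HSPA8 and HSP90AB1 each held 2 heat shock elements, of which the one nearer to the start is printed. Capitals mark the fixed letters of the motif or of its reverse complement, each line is written 5′ to 3′ on the strand of the gene, and the sites are at chr19:12938384-12938402, chr12:103930216-103930234, chr12:103930321-103930339, chr11:123062179-123062191 (minus strand), chr14:102087120-102087132 (minus strand) and chr6:44247831-44247843, in this order.
CALR, ER stress element: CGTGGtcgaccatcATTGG
HSP90B1, ER stress element, distal: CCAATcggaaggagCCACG
HSP90B1, ER stress element, proximal: CGTGGtgcggcgcgATTGG
HSPA8, heat shock element: TTCtgGAAggTTC
HSP90AA1, heat shock element: TTCcgGAAggTTC
HSP90AB1, heat shock element: TTCtgGAAgcTTC
The ER stress element was in 2 of the 23 called protein-coding genes that were higher and had a promoter in the table, CALR and HSP90B1. It was in 7 of 23 ER chaperones and in 25 of all 27305 promoters (0.092%). The heat shock element was in 4 of the 23, namely HSPA8, HSP90AA1, HSP90AB1 and BCAR3, in 7 of 30 cytosolic and mitochondrial chaperones and in 166 of all promoters (0.608%). Of 14 called protein-coding genes that were lower, 0 had either motif. At the shares of all promoters a match among 14 genes would be rare, so this 0 says nothing about direction. A match describes the letters in these windows and no occupancy, and the chaperones are known carriers of these elements.

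Several abundant genes were called higher or lower together with their processed pseudogenes, whose 3′ reads cannot be assigned with certainty. For these, the UMIs of parent and copies were added, a step chosen after the data were seen. The RPL29 family had the smallest limma p of this fit (adjusted p = 4.6e-11). Its groups overlapped all the same (exact permutation p = 0.215, edgeR adjusted p = 0.920). The EEF1A1 family passed at a log2 fold change of 0.01. Very small adjusted p of families, in limma-voom or edgeR, are therefore no measure of how far the groups lie apart. FABP5, which encodes a fatty acid binding protein, showed the largest difference among the families described here. Its family was at 312, 403 and 478 CPM in the lowest, median and highest strong KD library. The moderate KD libraries had 232 and 199 CPM at day 10 and 201, 298 and 229 CPM at day 13, all below the strong KD libraries. The log2 fold change was 0.74 (standard error 0.125, limma adjusted p = 0.0127, edgeR adjusted p = 6.1e-18, exact permutation p = 0.005). All 5 tested copies of FABP5 were higher, 4 of them past the threshold on their own, and copies held 77.2% of the family UMIs in strong and 74.8% in moderate KD. The control vectors differed in the same direction, with 306 CPM for SFFV/sh-CTRL and 250 CPM for EF1a/sh-CTRL (log2 fold change 0.29).

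The HSPE1 family was at 409 ± 75.7 CPM (SD, n = 6) with strong and 285 ± 31.4 CPM (SD, n = 5) with moderate KD, a log2 fold change of 0.56 (limma adjusted p = 0.0522, edgeR adjusted p = 1.03e-11, exact permutation p = 0.015). The groups overlapped through 1 library, SFFV/sh-XIAP day 10 replicate 2, at 265 CPM, which is also the shallowest. All 8 tested HSPE1 copies were higher, and copies held 46.9% of the UMIs in strong and 37.8% in moderate KD, so that the copies differed more than HSPE1 itself (log2 fold change 0.32, limma adjusted p = 0.174). The NPM1 family, which encodes nucleophosmin, a nucleolar protein of ribosome assembly, was at 1996 ± 109 CPM (SD, n = 6) and 1726 ± 56.6 CPM (SD, n = 5), without overlap (log2 fold change 0.22, limma adjusted p = 4.16e-08, edgeR adjusted p = 0.000791, exact permutation p = 0.005). The family of RPL35, a large-subunit ribosomal protein, was at 3621 ± 128 CPM and 3124 ± 236 CPM (SD), again without overlap (0.18, limma adjusted p = 0.0398, exact permutation p = 0.005). Here the difference lay on the copies. RPL35P1 (chromosome 1), RPL35P2 (chromosome 6) and RPL35P5 (chromosome 7) had log2 fold changes of 0.27, 0.41 and 0.55, whereas RPL35 had 0.05 (limma adjusted p = 0.853). Why copies and parent differ was not tested. The control vectors differed in the same direction, with family log2 fold changes of 0.14 for HSPE1, 0.09 for NPM1 and 0.08 for RPL35. For RPL35P1 alone the log2 fold change between the controls was 0.13. EIF5AL1, a protein-coding retrocopy of the translation factor EIF5A, was higher with a log2 fold change of 0.40 (limma adjusted p = 0.0168, exact permutation p = 0.005), and the EIF5A family with 0.22 (limma adjusted p = 0.157).

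**Figure D3:**
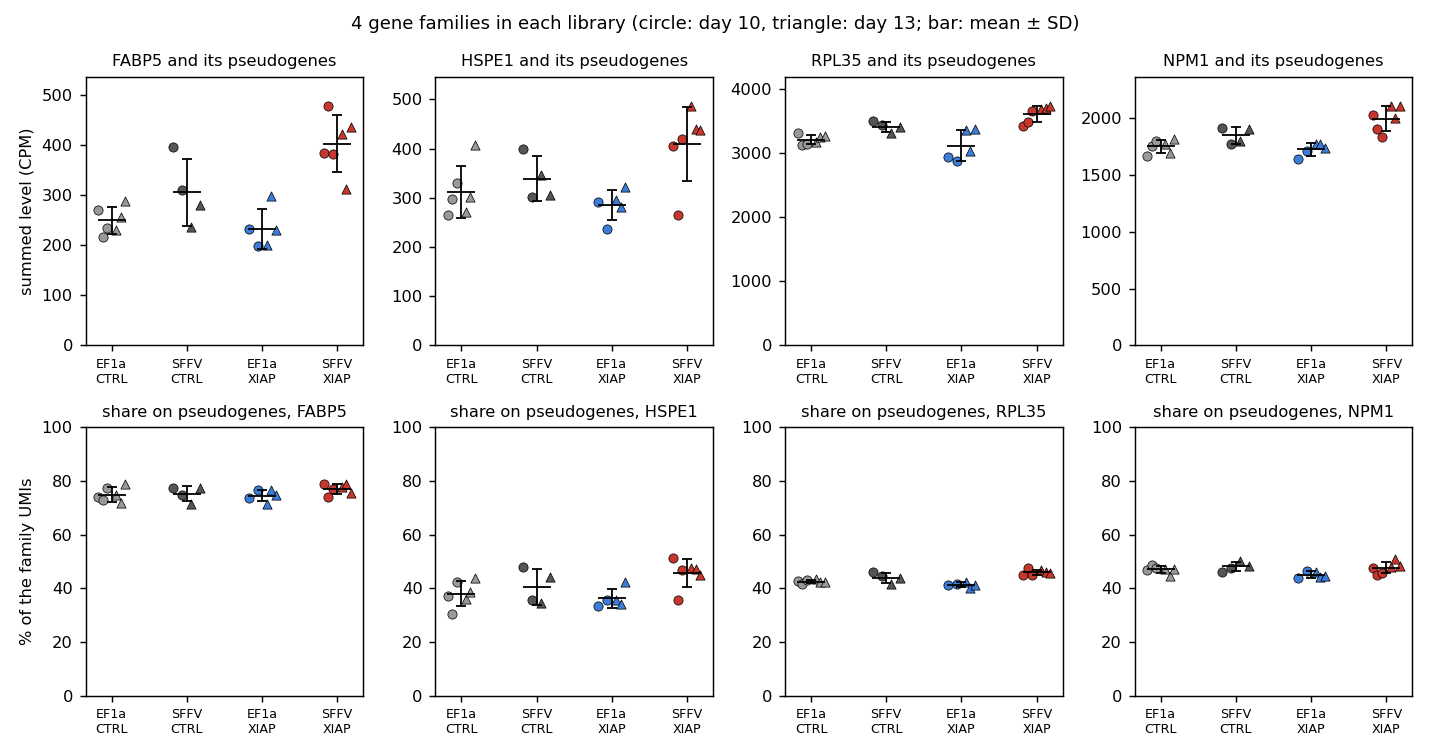
Summed CPM of 4 genes with their pseudogenes (top row) and the percent of these UMIs on pseudogenes (bottom row) in each library of days 10 (circles) and 13 (triangles), with mean ± SD by construct. In the FABP5, RPL35 and NPM1 families the SFFV/sh-XIAP libraries are above all EF1a/sh-XIAP libraries, and in HSPE1 the library at 265 CPM falls among them.

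The counts of the following lists stand beside 0.305% of all genes called higher and 0.158% called lower. Of 30 MYC and nucleolar growth genes 2 rose and 0 fell, ODC1, the rate-limiting enzyme of polyamine synthesis, and NPM1. NPM1 without its copies had a log2 fold change of 0.12 (limma adjusted p = 0.171, edgeR adjusted p = 0.498, exact permutation p = 0.015), and its groups overlapped. The list had 24 positive and 6 negative members and a median of 0.09. ODC1 was at 463, 474 and 487 CPM in the lowest, median and highest strong KD library. Its moderate KD libraries lay between 399 and 426 CPM, so that the groups did not overlap (log2 fold change 0.22, limma adjusted p = 0.139, exact permutation p = 0.005). Of 32 actin and actin-binding genes, 2 rose and 0 fell, ACTB (beta-actin, log2 fold change 0.11, limma adjusted p = 0.0635) and TMSB4X (the actin-sequestering thymosin beta-4, 0.17, 0.0626), both without overlap. For ACTB the gap was narrow, from 1432 CPM in the highest moderate to 1436 CPM in the lowest strong KD library. The edgeR test called TMSB4X (adjusted p = 0.0846) but not ACTB (0.499956). Between the control vectors TMSB4X differed in the same direction (log2 fold change 0.11) and ACTB in the opposite one (-0.05). Of 58 nuclear-encoded respiratory chain genes, 2 rose and 0 fell, UQCRQ of complex III (0.28, limma adjusted p = 0.152) and COX5B of complex IV (0.38, 0.246). This list had 42 positive and 16 negative members, with a median of 0.09. Of 15 mitochondrial genome transcripts, 2 rose and 0 fell, the complex I subunits MT-ND1 (0.18, limma adjusted p = 0.224) and MT-ND2 (0.20, 0.1004). The share of mitochondrial UMIs was 1.79% to 2.12% with strong and 1.80% to 1.88% with moderate KD. HNRNPR, an RNA-binding protein, was 1 of 35 HNRNP and SRSF genes that passed, at 482 ± 24.6 against 407 ± 17.7 CPM (SD, log2 fold change 0.22, limma adjusted p = 0.107, exact permutation p = 0.005). The proteasome list had 0 of 36 members past the threshold in limma-voom (4 at an unadjusted p under 0.05, 1 in edgeR), 27 of them positive, with a median of 0.05. COX5B lost its call in 23 of the 36 alternatives, MT-ND1 in 17, NPM1 in 15, ACTB in 11 and ODC1 in 9.

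**Figure D4:**
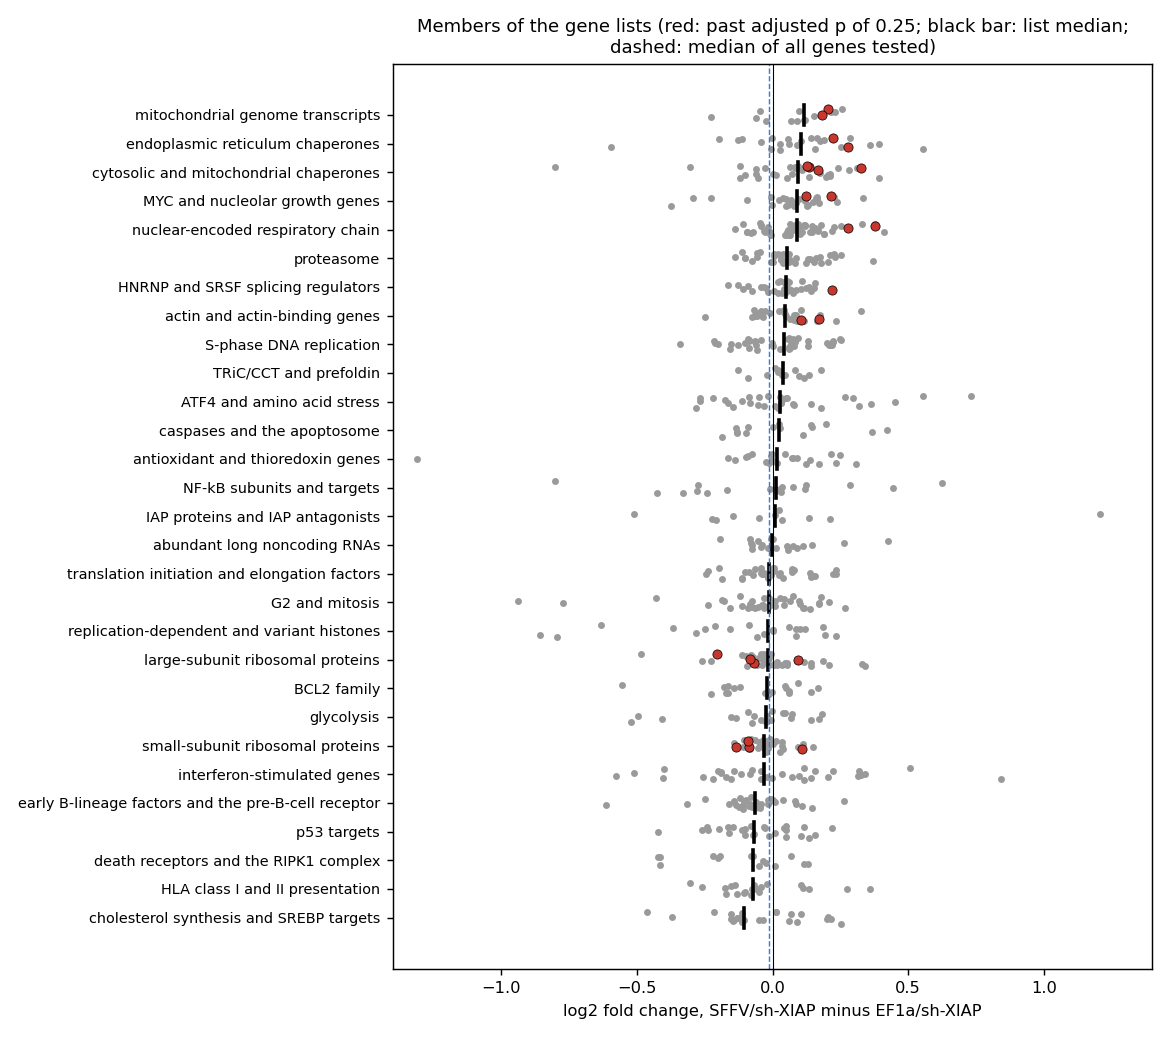
Each point is a member of a gene list (y axis), at its log2 fold change of SFFV/sh-XIAP minus EF1a/sh-XIAP (x axis), red if past the adjusted p of 0.25 in limma-voom. Black bars are list medians and the dashed line is the median of all genes tested, -0.01. The ER chaperone median is 0.11 and that of cholesterol synthesis genes -0.10, with 0 members called in the latter.

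Among the 28 genes called lower, BAHCC1 (chromosome 17 from 81395475 to 81466332, plus strand), which encodes a chromatin protein, was at 88.6, 105 and 128 CPM in the lowest, median and highest strong KD library. The moderate KD libraries had 190 and 168 CPM at day 10 and 145, 149 and 156 CPM at day 13. All strong KD libraries were below all moderate KD libraries (log2 fold change -0.53, standard error 0.110, limma adjusted p = 0.00421, edgeR adjusted p = 0.000219, exact permutation p = 0.005). The control vectors were alike, with 143 ± 18.3 CPM (SD, n = 4) for SFFV/sh-CTRL and 149 ± 16.7 CPM (SD, n = 6) for EF1a/sh-CTRL, a log2 fold change of -0.07. LAPTM5, a lysosomal membrane protein of blood cells, was at 302, 312 and 340 CPM in the lowest, median and highest strong KD library. Its moderate KD libraries had 371 and 401 CPM at day 10 and 378, 371 and 373 CPM at day 13, without overlap (log2 fold change -0.26, limma adjusted p = 0.0949, edgeR adjusted p = 0.0666, exact permutation p = 0.005). LAPTM5 lost its call in 17 of 36 alternatives, BAHCC1 in 1 of 36.

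B-cell genes leaned the same way without a call. Of 34 early B-lineage and pre-B-cell receptor genes, 0 passed in limma-voom or edgeR and 6 had an unadjusted limma-voom p under 0.05. Of the 34, 26 were negative and 8 positive, and the median was -0.06. IGHM (log2 fold change -0.11, limma adjusted p = 0.251) and MME, which encodes CD10 (-0.14, 0.315), came closest. Of 22 HLA class I and II presentation genes, 0 passed in limma-voom or edgeR and 4 had an unadjusted limma-voom p under 0.05. Of the 22, 17 were negative and 5 positive, and the median was -0.07. CD74, the invariant chain of class II, had a log2 fold change of -0.15 (limma adjusted p = 0.2996). The summed HLA list was at 5311 to 5555 CPM with strong and 5583 to 5786 CPM with moderate KD.

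A further 10 lists had 0 members past the threshold in limma-voom or edgeR, and 1 to 6 each at an unadjusted limma-voom p under 0.05. Cholesterol synthesis genes had the lowest median log2 fold change of these lists, -0.10 (25 tested), and S-phase DNA replication genes the highest, 0.04 (40). Between them lay interferon-stimulated genes at -0.03 (34), ATF4 and amino acid stress genes at 0.03 (33), glycolysis at -0.02 (20), antioxidant and thioredoxin genes at 0.02 (23), G2 and mitosis genes at -0.01 (41), translation factors at -0.01 (37), histones at -0.02 (22) and abundant long noncoding RNAs at -0.00337 (20).

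Ribosomal protein genes passed in both directions, with very small differences in abundant transcripts. Of 52 large-subunit genes 1 passed with a positive and 3 with a negative fold change, and likewise of 35 small-subunit genes 1 and 3. Over all genes these shares were 0.305% and 0.158%. RPL29 had the smallest p of the protein-coding genes (log2 fold change -0.07, limma adjusted p = 0.000216), but strong KD libraries spanned 7039 to 10090 CPM and moderate KD libraries 7700 to 9432 CPM. Its exact permutation p was 0.22 and its edgeR adjusted p 0.895. RPL3 (-0.08), RPS19 (-0.09), RPS23 (-0.14) and RPL23 (0.09) overlapped between the groups as well, and edgeR called none of these 4. RPL34 and RPS18 had exact permutation p of 0.555 and 0.745, and their direction turned with the processing. RPS18, the small-subunit gene with a positive fitted fold change (0.11), had mean levels in the opposite order, 10074 ± 1814 CPM with strong and 10242 ± 947 CPM with moderate KD (SD).

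Transcripts of very low level made up the largest fold changes. BORCS5, a subunit of the lysosome positioning complex BORC, had 33 UMIs over the strong and 4 over the moderate KD libraries (log2 fold change 2.06, limma adjusted p = 0.0626). Its level was 7.36 ± 3.26 CPM (SD, n = 6) with strong and 0.992 ± 1.39 CPM (SD, n = 5) with moderate KD, and 2.12 ± 1.84 CPM (SD, n = 4) in SFFV/sh-CTRL and 5.11 ± 2.46 CPM (SD, n = 6) in EF1a/sh-CTRL. The controls thus had the opposite order of promoters. The long noncoding RNA AC026333.4 had 5 and 15 UMIs (log2 fold change -2.18) and the pseudogene MST1L 4 and 15 UMIs (-2.21).

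The control vectors differ in promoter, and with it in the drive of dsRED and of the control hairpin, without a hairpin against XIAP. Between SFFV/sh-CTRL (n = 4) and EF1a/sh-CTRL (n = 6), which share no sample with the KD groups, 2 of 17683 genes passed in limma-voom (0.0113%), CTU1 and RPL34, both higher with SFFV. At an unadjusted p under 0.05 there were 955 genes, and edgeR called 1. CTU1, a tRNA-modifying enzyme, was at 10.0 ± 3.74 and 1.98 ± 2.21 CPM in the controls (SD), but at 4.45 ± 1.73 and 5.81 ± 1.73 CPM with strong and moderate KD. It rested on few UMIs, 18 over the SFFV and 8 over the EF1a control libraries. RPL34 overlapped between the controls, at 18971 to 27353 CPM with SFFV and 17404 to 23080 CPM with EF1a. Of the 82 genes called between the KD groups, 61 had the same sign between the controls, against 8971 of all 17683 genes with the same sign in both comparisons. Over the 54 genes that were higher, the median log2 fold change was 0.50 between the KD groups and 0.06 between the controls. Over the 28 that were lower it was -0.38 and -0.04. These genes were called by the difference between the KD groups, so that smaller medians between the controls follow in part from this choice. For some genes both differences were of like size. EEF1GP5, a processed copy of the elongation factor gene EEF1G, was at 171 ± 17.5 and 230 ± 19.3 CPM with strong and moderate KD, and at 171 ± 23.4 and 227 ± 28.1 CPM in the SFFV and EF1a controls (SD). MTRNR2L10, a nuclear near-copy of mitochondrial 16S rRNA, had log2 fold changes of -0.48 and -0.49. Of the gene lists, the cytosolic and mitochondrial chaperones had a median log2 fold change of 0.02 between the controls, the ER chaperones of 0.04, the MYC and nucleolar growth genes of 0.06 and the respiratory chain genes of -0.02, beside 0.02 for all genes tested. For the early B-lineage genes the median between the controls was -0.03, and for the HLA genes -0.06, close to their -0.07 between the KD groups.

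The difference between the KD groups beyond that between the controls was tested as an interaction. It passed for 1 of 17683 genes (0.00566%), RPL34, in limma-voom (log2 difference -0.35, adjusted p = 0.0367), and for 0 genes in edgeR. At an unadjusted p under 0.05 there were 917 genes with limma-voom and 879 with edgeR. For BAHCC1 the interaction was -0.46 (limma adjusted p = 0.875), for CALR 0.16 (0.957), for HSPA8 0.11 (0.875) and for HSP90B1 0.18 (0.957). The median of the interaction was 0.08 over the cytosolic and mitochondrial chaperones, but -0.04 over the ER chaperones, beside -0.03 for all genes. None of these 4 genes was thus shown to differ from the promoter difference, nor shown to equal it.

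Each KD group was also set against the control vector with its own promoter, which shares libraries with the comparison above. With strong KD 15 of 17683 genes (0.0848%) passed in limma-voom, 5 higher (0.0283%) and 10 lower (0.0566%), and edgeR called 26. Of the 15, 4 were also called between strong and moderate KD, namely ACTB and HSPA8, which were higher, and RPL34 and KCTD17, which were lower. With moderate KD 0 genes passed in limma-voom or in edgeR, beside 828 at an unadjusted p under 0.05. For HSPA8 the log2 fold change from the control was 0.13 (limma adjusted p = 0.0739) with strong and 0.02 (0.995) with moderate KD. The other called chaperones did not pass against their controls. CALR had log2 fold changes of 0.12 with strong and -0.04 with moderate KD (limma adjusted p = 0.821 and 0.995), and HSP90B1 of 0.20 and 0.02 (0.473 and 0.997). For BAHCC1 they were -0.35 and 0.12 (limma adjusted p = 0.672 and 0.995), and for LAPTM5 -0.22 and -0.01 (0.643 and 0.998).

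**Figure D5:**
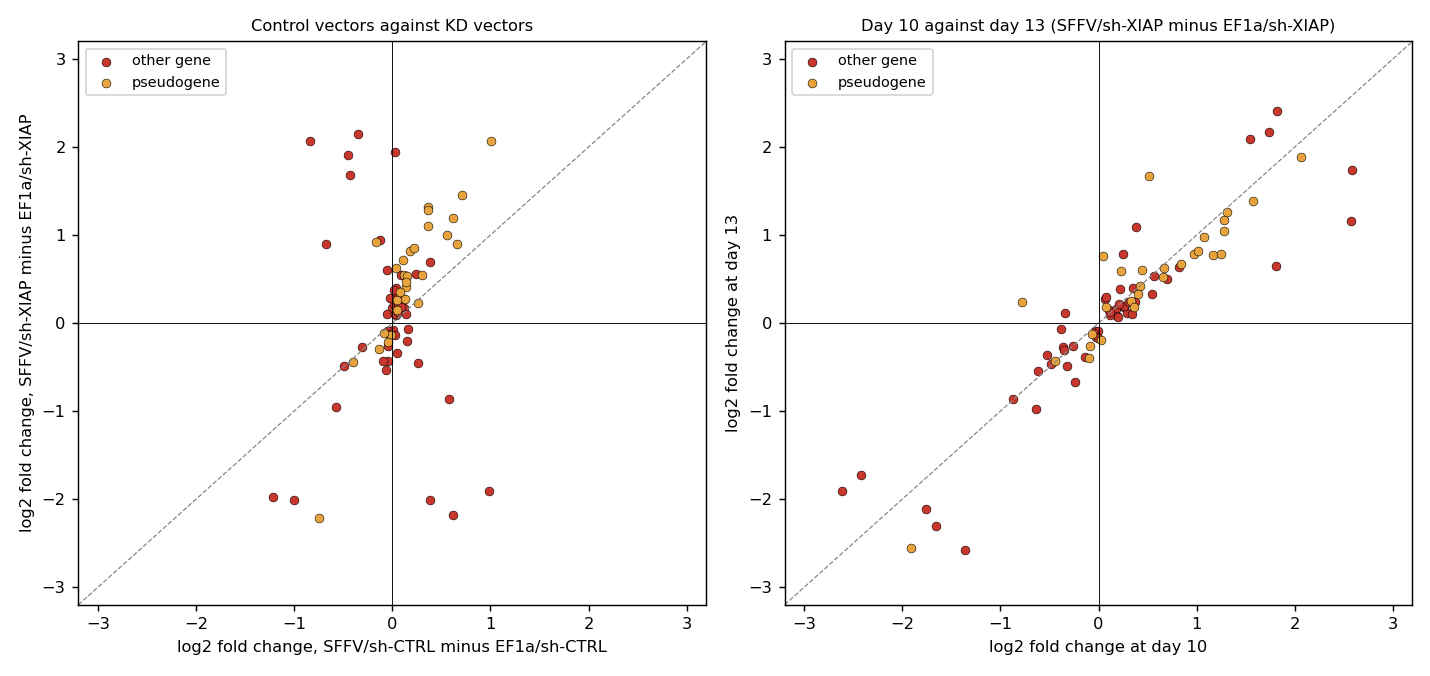
Left, the 82 called genes with their log2 fold change between the control vectors (x axis) and between the KD vectors (y axis). Right, the same genes with the difference between the KD vectors at day 10 (x axis) and day 13 (y axis); dashed lines mark equality. On the left most genes lie nearer to 0 on the x axis than on the y axis, on the right 79 of 82 have the same sign on both days. The genes were called by the difference between the KD vectors over both days, from which both patterns follow in part.

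Of the 82 genes 79 had the same sign on day 10 and day 13, against 9243 of all 17683 genes. Both days entered the call, and the named genes were chosen for a like sign, so that this is a description. CALR had log2 fold changes of 0.38 and 0.24, BAHCC1 of -0.62 and -0.54 and LAPTM5 of -0.26 and -0.27. The change from day 10 to day 13 passed for 1 of 17683 genes (0.00566%) in limma-voom, with 931 at an unadjusted p under 0.05. At day 4, with 2 samples of each construct, 0 of 18336 genes passed in limma-voom, with 947 genes at an unadjusted p under 0.05, and edgeR called 1. Of the 82 genes called late, 30 had the same sign at day 4, beside 8413 of the 17159 genes tested at both times. CALR had a log2 fold change of -0.10 and HSPA8 of -0.05 at day 4, neither past the threshold. The medians of the cytosolic and ER chaperone lists were -0.03 and -0.02 at day 4. The difference between day 4 and the late days was not tested.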

How the data were processed

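Bulk NALM-6 RNA was sequenced by prime-seq. The values deposited by the authors are raw UMI counts, not normalized, in 1 table with 30667 Ensembl identifiers, 29928 of them in GENCODE 29. The submitters' processing notes name STAR 2.6.0a and the builds hg38 (GRCh38) and mm10 (GRCm38). The annotation behind the counts is not given in the sources used here. Samples were grouped by the construct and day in their labels. The members and the 34 gene lists were chosen with earlier results of these data known.

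For the 21 samples of days 10 and 13, genes above 1 CPM in 1/3 or more of them were kept (17683) and TMM-normalized. They were tested with limma-voom (construct and day as terms, Benjamini-Hochberg adjustment, adjusted p of at most 0.25). Filter, tools and threshold followed the study's methods, which do not name robust moderation. It was chosen because earlier results of these data gave very small adjusted p for abundant ribosomal genes whose groups overlapped. Without robust moderation 71 genes were called, 62 of them shared with the main fit. Day 4 was fitted apart. R 4.3.3, limma 3.58.1, edgeR 4.0.16 and DESeq2 1.42.0 were used, and the fits were tested on simulated data. Exact permutation tests were two-sided, within days, over 200 arrangements, on log2 CPM with a prior count of 2. The procedure named XIAP, BIRC2 and BIRC3, the 8 smallest p in each direction among called genes with the same sign on both days (pseudogenes and mitochondrial tRNAs apart), 3 pseudogenes in each direction, up to 4 called members of each list and, for every other comparison, 2 in each direction. Other genes were named after their values were seen, and some genes are not reported here.

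Samples of the same day and replicate number did not deviate together between the KD groups (mean residual correlation 0.00166 over 5 pairs), and replicate pairs differed beyond counting noise (chi-square per gene 1.10 to 2.18 over 10 pairs). Alternatives covered the test, normalization, filter, thinning, depth, blocks, samples, days, thresholds, pseudogenes and each sample left out. Of these, 3 were added after the data were seen: pseudogene UMIs added to the parent, limma-trend on thinned counts, and the 11 samples with depth as a covariate. Depth covers counting error only.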

Additional observations from a re-analysis of the deposited data

Results flagged for a closer look

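In 5 of 68 groups of values examined, 1 library stood apart from the others by its gap to the next value (Dixon's 95% limit, which chance alone passes in about 1 of 20 groups). With moderate KD, HSP90AB1 was at 973 CPM in day 13 replicate 1, above the next library at 885 CPM. LAPTM5 was at 401 CPM in day 10 replicate 2, above the next at 378 CPM, and HSPE1 was lowest in the same shallow library, at 152 CPM against 185 CPM. In EF1a/sh-XIAP day 13 replicate 3 pseudogenes held 42.3% of the HSPE1 family UMIs, against 35.7% in the next library. With strong KD, the HSPE1 family was at 265 CPM in day 10 replicate 2, well below the next library at 406 CPM.

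For RPL34 the difference between strong and moderate KD departed from the promoter difference in the controls by -0.35 on the log2 scale (limma adjusted p = 0.0367). RPL34 was not separated between strong and moderate KD by an exact permutation test within days (p = 0.555), and its groups overlapped. The control groups overlapped as well, at 18971 to 27353 CPM with SFFV/sh-CTRL and 17404 to 23080 CPM with EF1a/sh-CTRL. The direction of RPL34 between the KD groups turned in 11 of 36 alternatives.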

How the results depend on the processing

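Against 82 genes called (54 higher, 28 lower), the count was 26 (16 and 10) with DESeq2, 18 (12 and 6) on counts thinned to the smallest total, 33 (23 and 10) with limma-trend on thinned counts, 14 (8 and 6) with all 31 samples, 33 (21 and 12) for day 10 alone, 35 (25 and 10) and 22 (17 and 5) at adjusted p of 0.1 and 0.05, and 45 (26 higher) without pseudogenes. With no day term it was 123, 52 of them lower. Genes lower numbered 12 with limma-trend, 15 without TMM and 12 in the 11 samples alone. Leaving out each sample gave 42 to 106 genes, 34 to 76 higher and 8 to 30 lower. The replicate block gave 64 genes (45 and 19), and the block changed no comparison otherwise except that it called 0 genes between the controls, 0 beyond the promoter and 4 for the change between days. The controls gave 1 gene in edgeR, 0 in limma-trend and 1 without robust moderation, the interaction 0 and 2 in edgeR and limma-trend, the change between days 5 and 4, and day 4 gave 1 in edgeR. In each alternative at least 77 of the called genes, or all that had a value where fewer were tested, kept their sign. XIAP turned to 0.0950 on thinned counts and to 0.0817 with limma-trend on them, and BIRC2 to 0.00143 on thinned counts. RPL34 turned to 0.00989 without TMM, 0.26 without a filter, 0.34 on thinned counts, 0.00993 in the 11 samples alone, 0.0366 in them with depth as a covariate, 0.10 with all 31, 0.0378 at day 13 and 0.19 without the 2 shallowest libraries. RPS18 turned to -0.0174 in edgeR, -0.0279 in limma-trend, -0.0265 in DESeq2, -0.0330 on thinned counts, -0.0242 with limma-trend on them and -0.32 at day 10, RPL3 to 0.0148 and RPS23 to 0.00978 at day 10. Without 1 sample each, RPL34 ranged from -0.27 to 0.18 and RPS18 from -0.15 to 0.13. RPL34 turned without EF1a/sh-XIAP day 13 replicates 1 or 2 or SFFV/sh-XIAP day 13 replicate 2, and RPS18 without EF1a/sh-XIAP day 13 replicate 3. The cause was not tested.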

Other observations

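Some called genes outside the naming rule are listed for their values, chosen after these were seen. Higher with strong KD were CISD1, an iron-sulfur protein of the outer mitochondrial membrane (57.4 against 36.1 CPM, log2 fold change 0.70, limma adjusted p = 0.165, edgeR adjusted p = 0.0209), POLR2L, a small subunit shared by the RNA polymerases (76.7 against 53.2 CPM, 0.60, limma adjusted p = 0.109, edgeR adjusted p = 0.0392) and SLC25A33, a mitochondrial pyrimidine nucleotide carrier (38.1 against 18.2 CPM, 0.90, limma adjusted p = 0.239). Lower were FADS2, a fatty acid desaturase (86.3 against 116 CPM, -0.44, limma adjusted p = 0.185), KCTD17 (103 against 139 CPM, -0.43, limma adjusted p = 0.107) and EMC2, of the ER membrane insertion complex (16.5 against 29.1 CPM, -0.87, limma adjusted p = 0.175). KCTD17 and EMC2 did not overlap between the groups. SLC25A33 and EMC2 differed in the opposite direction between the control vectors (log2 fold change -0.68 and 0.57).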
